A study of Mus musculus with 24 samples.

Results

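The genes described here build, load and regulate MHC class I, the surface complex through which a cell shows fragments of its own proteins to CD8+ T cells. They are H2-D1, H2-K1, B2m, Tap1, Tap2, Tapbp, Psmb8, Psmb9, Nlrc5 and Psme1. The 10 genes were taken by gene name from a table of 54532 rows of RNA-seq values from mouse liver tumours, and all 10 were found. The table writes the names in capitals (B2M, TAP1, TAP2, TAPBP, PSMB8, PSMB9, NLRC5 and PSME1). The values are FPKM, fragments scaled by gene length and by the mapped fragments of the library, so levels can be compared between genes. A gene was tested if its FPKM was at least 1 in at least 2 of 20 libraries, which 13594 genes met. All 10 genes passed, but Nlrc5 did so through 3 libraries, all of them treated with RMC-6272. Tap2 reached an FPKM of 1 in 17 of the 20 libraries, and the other 8 genes did so in each of the 20.

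All animals were FVB/N mice carrying Lap-tTA and Tet-O-MYC. The liver activator promoter drives the tetracycline transactivator in hepatocytes, which switches on human MYC when doxycycline is withheld, and the animals then develop hepatocellular carcinoma (HCC). Doxycycline was withdrawn at 4 weeks of age, and the age at collection was not given in the labels. MYC was therefore on in every group of the 20 libraries, the controls included. Vehicle (Transcutol, Solutol HS 15 and water) was injected into the peritoneum weekly, and tumours were taken 24 h after the second dose (3 libraries). RMC-6272, a bi-steric inhibitor of mTORC1, was injected weekly at 10 mg/kg. Its tumours were taken at 12 h (1 library) and at 24, 48 and 72 h (3 libraries each) after a second dose given 7 days after the first. Sorafenib, a multikinase inhibitor used in HCC, was given by gavage at 30 mg/kg per day, with tumours taken at 4 h (3 libraries), 24 h (2) and 48 h (2). A further 4 libraries, 2 of RMC-4627 (10 mg/kg) at 24 h and 2 of doxycycline in the drinking water (100 µg/ml, MYC switched off) at 24 h, are shown apart at the end. Their columns were made in another way.

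Vehicle was collected at 24 h alone, so in comparisons of 48 and 72 h with vehicle the time and the treatment cannot be told apart. The description codes of the vehicle libraries are shared with none of the RMC-6272 or sorafenib libraries, so code and treatment cannot be told apart either. The labels do not say whether replicates came from separate animals, so p-values measure the spread between these libraries, which may be technical. The 20 libraries held 17.6 to 41.7 M reads by the single-read steps of their values, with a median of 34.9 M. Among the 10 genes the fewest reads were behind Nlrc5, 45 to 501 per library, and the most behind B2m, 8296 to 53798, and H2-D1, 6490 to 56547. The samples are bulk tumour tissue, in which fewer cells of a type and less RNA per cell cannot be told apart. FVB/N carries another H2 haplotype than the C57BL/6J reference. H2-D1 and H2-K1 are similar in sequence to each other and to other class I genes, so the split of reads between them is uncertain.

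In a class I molecule a polymorphic heavy chain, here encoded by H2-K1 and H2-D1, is held by the invariant light chain beta-2 microglobulin (B2m). Peptides are cut by the proteasome, in which Psmb8 and Psmb9 replace constitutive catalytic subunits to form the immunoproteasome, and which the PA28 activator (Psme1 with Psme2) can open. Tap1 and Tap2 form the transporter that carries peptides into the endoplasmic reticulum, where tapasin (Tapbp) tethers the empty heavy chain to it. Nlrc5 is the transactivator of class I genes and acts at an SXY module in their promoters, while interferon-regulated factors and NF-kB act at an enhancer just upstream. Hepatocytes are known for low resting levels of class I.

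The promoters of H2-D1, H2-K1, B2m and Tap1 are printed because they show elements that heavy chain and light chain genes share and that the transporter gene has in part. Each is the 250 bases before the annotated transcription start, from RefSeq on GRCm38.p6, 5′ to 3′ on the gene's strand. The submitters' notes name another build, mm9, for the alignment. H2-D1 lies at chr17:35262844-35263093 (plus strand), H2-K1 at chr17:34000348-34000597 (minus strand, the first of its listed starts), B2m at chr2:122147437-122147686 (plus strand) and Tap1 at chr17:34187306-34187555 (plus strand). Capitals mark an IRF core (AANNGAAA), the NF-kB motif, the CCAAT box (CCAAT) and the X2 box core (TGACG), searched on both strands. None of these 4 motifs overlapped another kind of motif in these windows.
H2-D1: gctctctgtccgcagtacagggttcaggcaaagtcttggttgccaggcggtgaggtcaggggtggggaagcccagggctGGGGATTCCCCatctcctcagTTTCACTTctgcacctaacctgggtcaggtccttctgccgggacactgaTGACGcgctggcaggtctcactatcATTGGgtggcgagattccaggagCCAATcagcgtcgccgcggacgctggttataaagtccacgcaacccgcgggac
H2-K1: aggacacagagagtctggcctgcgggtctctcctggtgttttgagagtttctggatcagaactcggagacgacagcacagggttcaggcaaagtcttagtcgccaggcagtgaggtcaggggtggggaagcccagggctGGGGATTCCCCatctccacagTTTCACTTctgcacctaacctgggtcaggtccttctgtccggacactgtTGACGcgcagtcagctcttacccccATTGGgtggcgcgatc
B2m: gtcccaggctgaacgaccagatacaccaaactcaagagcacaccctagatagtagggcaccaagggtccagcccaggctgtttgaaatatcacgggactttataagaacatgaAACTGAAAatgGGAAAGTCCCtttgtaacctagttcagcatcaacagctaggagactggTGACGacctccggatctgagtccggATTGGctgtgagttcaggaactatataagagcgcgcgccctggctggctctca
Tap1: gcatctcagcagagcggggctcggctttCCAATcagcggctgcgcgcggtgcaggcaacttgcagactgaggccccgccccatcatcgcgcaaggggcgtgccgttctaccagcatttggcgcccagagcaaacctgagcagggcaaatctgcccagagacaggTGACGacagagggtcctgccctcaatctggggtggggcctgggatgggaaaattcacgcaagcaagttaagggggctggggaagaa

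Of the 10 genes, 8 had a window in the RefSeq table, and Tap2 and Nlrc5 did not. The IRF core stood in 3 of the 8 (H2-D1, H2-K1 and B2m), against 21.3% of 32851 promoters over the same 250 bases. The NF-kB motif stood in the same 3, against 7.25%. The CCAAT box stood in 6 of 8, against 33.8%, and the X2 core in 5 of 8, against 17.8%. Over 190 aligned bases the H2-K1 and H2-D1 windows were 87.4% identical. Tap1 and Psmb9 start 226 bases apart and are transcribed away from each other, so their windows share sequence and do not count as independent. A match is a description of these letters, not evidence of binding.

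After RMC-6272 the classical heavy chains, the peptide transporter subunit Tap2, tapasin and the immunoproteasome subunit Psmb8 were higher than in vehicle at 24 h. The light chain B2m passed the test at 72 h and not at 24 h. Differences were tested on log2(FPKM + 1) with limma, two-sided, with Benjamini-Hochberg adjustment over all 13594 genes and a threshold of 0.05. All log2 differences below are on that scale, which understates the change of low genes such as Nlrc5. Nlrc5 entered the test through RMC-6272 libraries alone, so counts over the genes leave it out and its values are given as a description. At 24 h, 5 of the other 9 genes were called higher, against 14.8% of all genes tested, and none lower, against 20.3%. In the same comparison 4 of the 9 (H2-D1, H2-K1, Tap2 and Tapbp) had every RMC-6272 library above every vehicle library, against 23.3% of all genes. The median difference over the 9 genes was 1.04, beside -0.01 over all genes. At 72 h, 6 of the 9 were called higher, against 10.7% of all genes, and none lower, against 15.8%. The same 6 were the genes without overlap, against 13.3%. Another scaling moved the split of all calls at 72 h. It was 1458 higher and 2154 lower as deposited, 1697 and 1721 once libraries were scaled by median ratios, and 1113 and 2701 under quantile scaling.

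**Figure D1:**
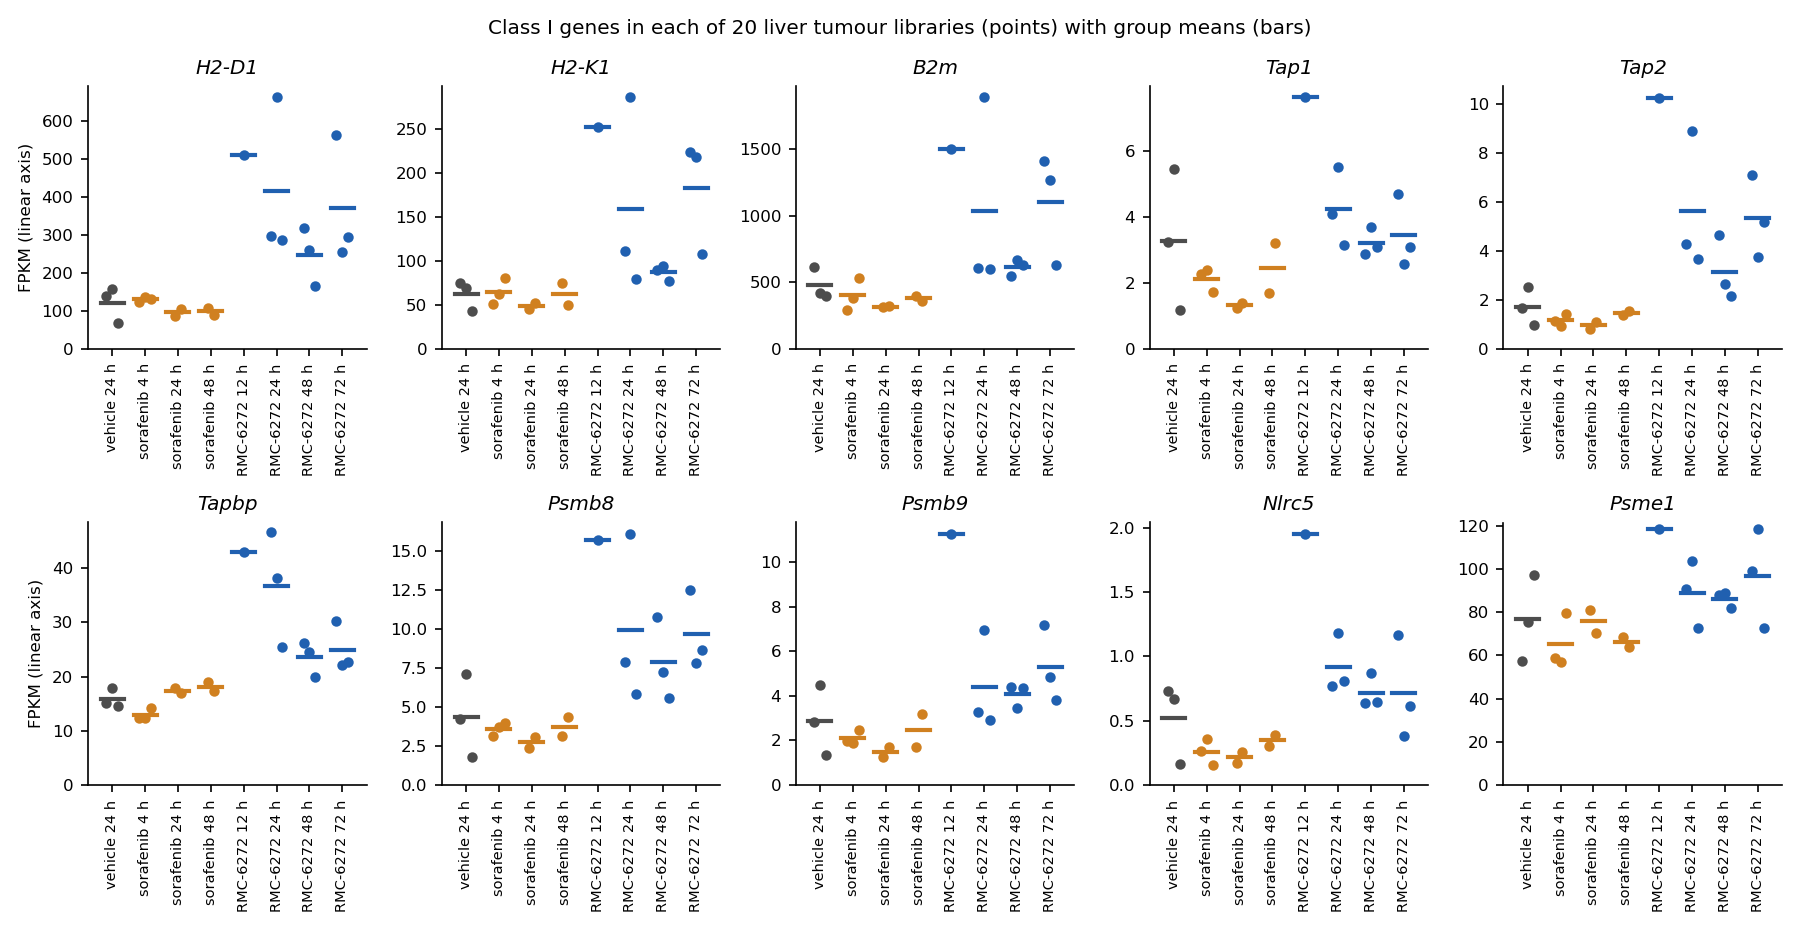
FPKM of the 10 genes on linear axes in each of the 20 libraries, grouped by treatment and collection time in hours. For vehicle and RMC-6272 the hours count from the second dose, while sorafenib was given daily. Each point is a library and each bar a group mean. The H2-D1 and Tapbp panels show every RMC-6272 library above every vehicle and sorafenib library.

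H2-D1, the D-locus heavy chain, had the largest difference at 24 h. It stood at 139, 157 and 68.5 FPKM in vehicle replicates 1, 2 and 3, and at 296, 663 and 287 in RMC-6272 at 24 h. All 3 treated libraries were above all 3 controls, and vehicle replicate 3 was the lowest of the 6. The difference was 1.74 (SE 0.38, 95% interval 0.92 to 2.56, limma adjusted p = 0.00381). At 48 h the values were 318, 261 and 164 FPKM, also without overlap, with a difference of 1.06 that missed the threshold (adjusted p = 0.142). At 72 h they were 564, 255 and 295 FPKM, and the difference was 1.60 (SE 0.38, adjusted p = 0.0120). The single library at 12 h read 510 FPKM. All 10 RMC-6272 libraries lay above all 10 vehicle and sorafenib libraries, with 164 FPKM as the lowest treated value next to 157 in vehicle replicate 2.

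H2-K1, the K-locus heavy chain, was lower than H2-D1 in all 20 libraries. Vehicle libraries held 74.4, 68.6 and 43.3 FPKM, and RMC-6272 at 24 h 111, 287 and 79.7. The groups did not overlap, but replicate 2 was far above the other treated libraries. The difference of 1.16 (SE 0.40, adjusted p = 0.0348) fell to 0.63 without that library (adjusted p = 0.165). It was also no longer called without vehicle replicate 2 (adjusted p = 0.0577) or 3 (0.136). At 72 h H2-K1 read 224, 218 and 107 FPKM, with a difference of 1.51 (SE 0.40, adjusted p = 0.0170), which became 1.27 without vehicle replicate 3 (adjusted p = 0.0637). At 48 h it read 89.0, 94.5 and 77.4 FPKM, just above vehicle, with a difference of 0.51 (adjusted p = 0.473). The ratio of H2-K1 to H2-D1 ran from 0.438 to 0.632 in vehicle and from 0.278 to 0.856 in RMC-6272 at 24 to 72 h, so the treated range covered the vehicle range.

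B2m, the light chain shared by all class I molecules, had the highest FPKM of the 10 genes in each of the 20 libraries. It stood at 614, 421 and 393 FPKM in vehicle and at 607, 1893 and 599.8 in RMC-6272 at 24 h. Treated replicate 2 was the highest of the 6, while both other treated libraries lay below vehicle replicate 1. The difference at 24 h was 0.92 (SE 0.40, adjusted p = 0.0849) and missed the threshold, though without RMC-6272 replicate 3 it was 1.20 (adjusted p = 0.0496). Without RMC-6272 replicate 2 it was 0.37 (adjusted p = 0.413). At 72 h B2m read 1406, 1266 and 627 FPKM, all above vehicle. Its difference there was 1.15 (SE 0.40, adjusted p = 0.0456), a call that was lost in 20 of 27 alternative settings. Among them were quantile scaling (0.53, adjusted p = 0.290) and the removal of vehicle replicate 1 (adjusted p = 0.0578), 2 (0.106) or 3 (0.125) or of 72 h replicate 1 (0.128) or 2 (0.0921). At 48 h the values were 546, 662 and 628 FPKM, overlapping with vehicle. Over the 3 times its level was not called as changing (limma's F test, adjusted p = 0.346).

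Tap2, a subunit of the peptide transporter, stood at 1.66, 2.51 and 0.965 FPKM in vehicle. In RMC-6272 it read 4.27, 8.88 and 3.67 FPKM at 24 h and 7.09, 3.73 and 5.19 at 72 h, with no overlap at either time. The difference was 1.24 (SE 0.29, adjusted p = 0.00545) at 24 h and 1.23 (SE 0.29, adjusted p = 0.0119) at 72 h. At 48 h the values of 4.62, 2.64 and 2.17 FPKM reached into the vehicle range, and the difference was 0.61 (adjusted p = 0.240).

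Tap1, its partner in the transporter, was not called at any time. Vehicle libraries held 3.22, 5.43 and 1.16 FPKM, a range that took in 8 of the 9 RMC-6272 values at 24, 48 and 72 h, and the ninth, 24 h replicate 2, stood just above it at 5.49. The 24 h difference was 0.41 (95% interval -0.26 to 1.07, adjusted p = 0.327). The ratio of Tap1 to Tap2 was 1.20 to 2.17 in vehicle, 1.21 to 2.53 in sorafenib and 0.595 to 1.41 in RMC-6272 at 24 to 72 h, where its median was 0.687. The ratio itself was not tested.

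Tapbp, which bridges heavy chain and transporter, had the smallest standard error of the genes that rose. Vehicle libraries held 15.2, 17.8 and 14.6 FPKM. RMC-6272 libraries held 46.7, 38.2 and 25.5 FPKM at 24 h, 26.3, 24.6 and 19.99 at 48 h, and 30.2, 22.1 and 22.6 at 72 h. All 9 lay above all 3 vehicle libraries, as did the 12 h library at 42.9. The difference was 1.13 (SE 0.19, adjusted p = 0.00111) at 24 h, 0.54 at 48 h (adjusted p = 0.134) and 0.61 (SE 0.19, adjusted p = 0.0307) at 72 h. The 72 h call was lost without vehicle replicate 1 (adjusted p = 0.0819) or 3 (0.0905) and without 72 h replicate 1 (0.47, adjusted p = 0.0956).

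Psmb8 encodes the immunoproteasome subunit that takes the place of Psmb5. It stood at 4.26, 7.10 and 1.78 FPKM in vehicle and at 7.89, 16.1 and 5.83 in RMC-6272 at 24 h, where the lowest treated library was below vehicle replicate 2. The difference was 1.04 (SE 0.37, adjusted p = 0.0388). It was 0.63 without vehicle replicate 3 (adjusted p = 0.191) and 0.67 without RMC-6272 replicate 2 (adjusted p = 0.176), and the call was also lost without vehicle replicate 1 (0.0643) or RMC-6272 replicate 1 (0.0597). At 72 h Psmb8 read 12.5, 7.81 and 8.69 FPKM, with a difference of 1.09 (SE 0.37, adjusted p = 0.0406), which was lost in 13 of 27 settings. Without vehicle replicate 3 it was 0.68 (adjusted p = 0.171), without vehicle replicate 1 the adjusted p was 0.0797, and without 72 h replicate 1 or 3 it was 0.112 and 0.0669.

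Psmb9, the subunit that replaces Psmb6, was not called against vehicle at 24, 48 or 72 h. It stood at 2.84, 4.47 and 1.37 FPKM in vehicle, 3.27, 6.96 and 2.91 in RMC-6272 at 24 h, and 7.16, 4.84 and 3.81 at 72 h. The groups overlapped at both times, and the differences were 0.47 (adjusted p = 0.248) and 0.73 (adjusted p = 0.0865). Without vehicle replicate 2 the 72 h difference was 1.02 (adjusted p = 0.0400), and without vehicle replicate 3 it was 0.42 (adjusted p = 0.329).

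Psme1, a subunit of the PA28 activator, had the smallest difference of the 10 genes at 24 h, 0.23 (95% interval -0.23 to 0.68, adjusted p = 0.433). It stood at 57.5, 75.5 and 97.4 FPKM in vehicle and at 90.7, 104 and 72.5 in RMC-6272 at 24 h. Vehicle replicate 3, the lowest vehicle library for the other 9 genes, was the highest for Psme1.

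Nlrc5 was the least abundant of the 10 genes, at 0.731, 0.667 and 0.163 FPKM in vehicle. RMC-6272 at 24 h held 0.773, 1.18 and 0.811 FPKM, all above vehicle, yet the difference of 0.35 missed the threshold (adjusted p = 0.148). At 48 and 72 h the groups overlapped, and 72 h replicate 2 was at 0.380. The highest of the 20 libraries was RMC-6272 at 12 h, with 1.95 FPKM.

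**Figure D2:**
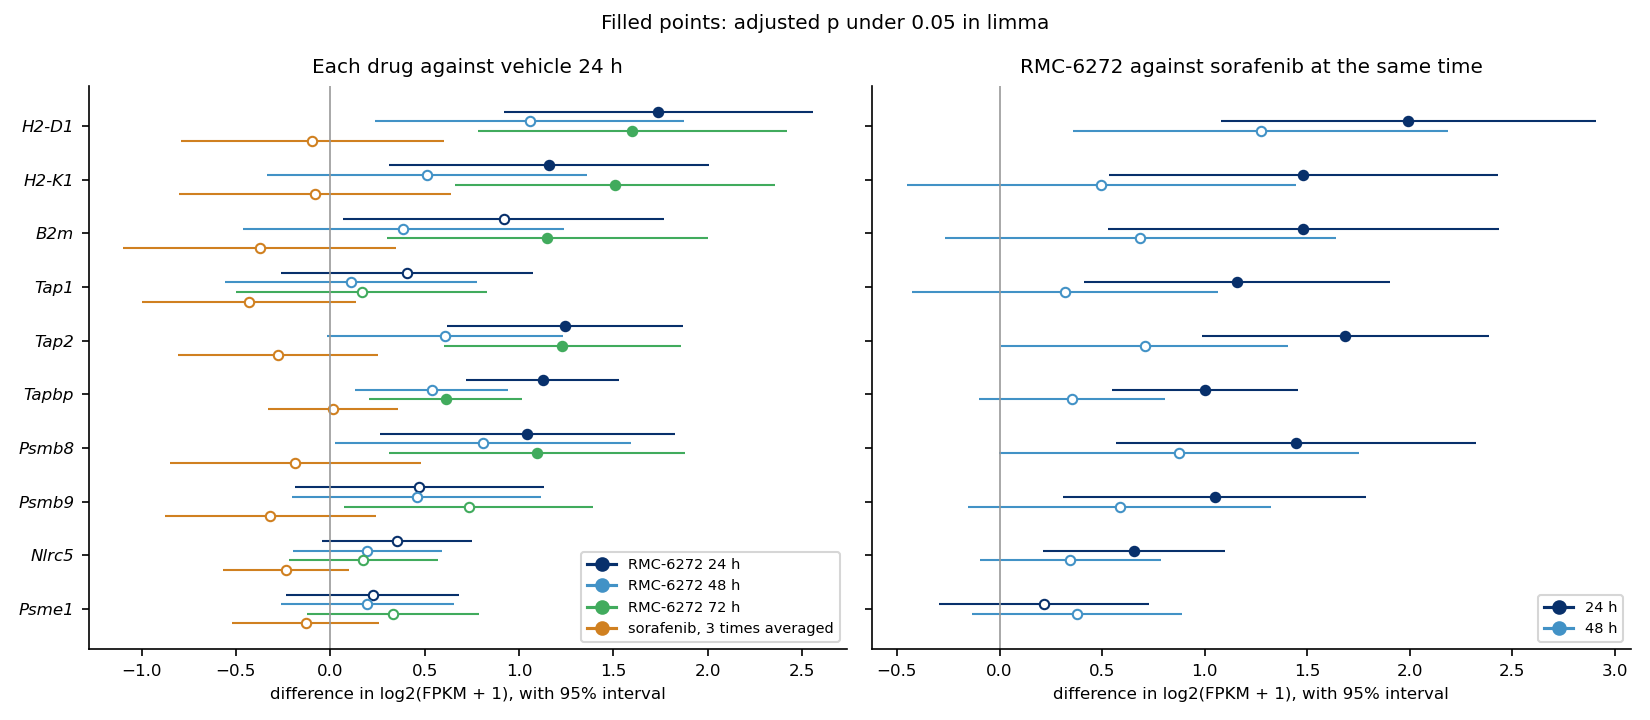
Log2 difference of each of the 10 genes on the log2(FPKM + 1) scale with its 95% interval, for RMC-6272 and sorafenib against vehicle at 24 h (left) and RMC-6272 against sorafenib at the same time (right). Filled points had an adjusted p under 0.05. On the left the RMC-6272 intervals of H2-D1, Tap2 and Tapbp at 24 and 72 h lie above 0 and every sorafenib interval crosses 0, and on the right every point at 24 h is filled but that of Psme1, where Nlrc5 was tested through its RMC-6272 libraries alone.

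At 48 h none of the 10 genes was called by limma, against 0.110% of all genes. The unadjusted p was under 0.05 for 3 of the 9 genes other than Nlrc5 and for 2981 of all genes. The 9 differences were above 0, with a median of 0.51. H2-D1, H2-K1 and Tapbp did not overlap with vehicle, 3 of 9 beside 13.9% of all genes. With the 3 times averaged, 5 of the 9 genes were called higher, against 13.2% of all genes, and none lower, against 19.1%. The 5 were H2-D1 (1.47, SE 0.31, adjusted p = 0.00464), Tapbp (0.76, adjusted p = 0.00397), Tap2 (1.03, adjusted p = 0.00649), Psmb8 (0.98, adjusted p = 0.0226) and H2-K1 (1.06, adjusted p = 0.0231). Without vehicle replicate 3 the calls were those of H2-D1 and Tapbp alone. Over the 9 libraries at these times 3 genes did not overlap with vehicle, H2-D1, H2-K1 and Tapbp, against 5.64% of all genes.

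A change over the 3 RMC-6272 times themselves was not detected in any of the 10 genes by limma's F test, as in 0% of all genes tested, although 3697 of the 13594 had an unadjusted p under 0.05. Of the 10 only Tapbp had an unadjusted p under 0.05. Its limma adjusted p was 0.117, and it passed the threshold without 24 h replicate 3 or without 72 h replicate 1. The single 12 h library held the highest value of the 20 libraries for Tap1 (7.63 FPKM), Tap2 (10.3), Psmb9 (11.3), Nlrc5 (1.95) and Psme1 (118.5), and has no replicate.

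Sorafenib left the 10 genes without a call. In limma none of the 10 passed, as in 0% of all genes. An unadjusted p under 0.05 was found for none of the 10 and for 414 of all genes. Averaged over 4, 24 and 48 h, 8 of the 9 differences from vehicle were below 0, Nlrc5 left out, with a median of -0.19 beside -0.00 over all genes. H2-D1 ran from 87.0 to 137 FPKM over the 7 sorafenib libraries, with a median of 108, within the vehicle range. Its difference was -0.10 (95% interval -0.79 to 0.60). Tap2 ran from 0.813 to 1.54 FPKM, with a median of 1.14, and 5 of the 7 libraries lay within the vehicle range, the other 2 below it. Nlrc5 ran from 0.158 to 0.393 FPKM, below vehicle replicates 1 and 2 in each of the 7 libraries. Over the sorafenib times limma's F test called none of the 10 either, against 0.00736% of all genes, and none of the 10 had an unadjusted p under 0.05.

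Compared directly at 24 h, RMC-6272 stood above sorafenib in 8 of the 9 genes other than Nlrc5, which were called higher against 7.47% of all genes and had no overlap between groups, against 29.0%. The differences were largest for H2-D1 (1.99, SE 0.43, adjusted p = 0.00966), Tap2 (1.69, SE 0.33, adjusted p = 0.00709), H2-K1 (1.48, adjusted p = 0.0332) and B2m (1.48, adjusted p = 0.0335). Like B2m, Tap1 (1.16, adjusted p = 0.0338) and Psmb9 (1.05, adjusted p = 0.0471) passed here and not against vehicle at 24 h. The 2 comparisons share the RMC-6272 libraries. The call of Psmb9 was lost in 17 of 27 settings. Nlrc5 differed by 0.66, a description with no weight of its own because only RMC-6272 libraries brought the gene past the filter. Psme1 overlapped between the drugs and was not called (0.22, 95% interval -0.30 to 0.73, adjusted p = 0.537). The 8 calls rest on 2 sorafenib libraries. Without either of them none of these calls held, but such a fit leaves 1 sorafenib library at 24 h. That library is then assumed to vary like the other groups. Without RMC-6272 replicate 1 or 2 the calls numbered 4 and 3. At 48 h limma called none of the 10, against 0.00736% of all genes. The unadjusted p was under 0.05 for 2 of the 9 and for 1722 of all genes. Of the 9, all but Tap1 were higher in each RMC-6272 library than in each sorafenib library at 48 h, 8 of 9 beside 16.7% of all genes.

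Of 18 other class I heavy chain genes in the table, 11 were tested, and 8 of them rose at 24 h of RMC-6272 against vehicle while none fell, with a median difference of 1.02. The shares of all genes were 14.8% higher and 20.3% lower. They included H2-T23, the gene of Qa-1 (1.02, adjusted p = 0.00166), H2-Q4 (1.27, adjusted p = 0.00310), H2-M3 (1.30, adjusted p = 0.00546) and H2-T22 (1.07, adjusted p = 0.00548). H2-K2 (0.07), H2-Q10 (0.41) and H2-T24 (-0.04) were not called. At 72 h 2 of 11 rose, near the 10.7% of all genes, H2-Q4 (1.14, adjusted p = 0.0113) and H2-T23 (0.58, adjusted p = 0.0375). With an unadjusted p under 0.05 in limma, 7 of the 11 were higher at 72 h and 0 lower. Over all genes 5774 had such a p in either direction. Read sharing among these paralogs and with H2-D1 and H2-K1 makes the count of separate genes uncertain. Of 5 class I-like genes outside the MHC, 2 rose at 24 h, Mr1, which presents vitamin B metabolites, and Fcgrt, the neonatal Fc receptor.

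Further lists held peptide trimming and loading genes, partners in the immunoproteasome, and constitutive proteasome subunits and activators, and no gene of these lists was called higher at 24 h. Over all genes 14.8% were called higher at 24 h and 20.3% lower. Of 10 genes that trim or load peptides none rose in limma (1 was higher with an unadjusted p under 0.05) and 2 fell. The 2, near the 20.3% of all genes, were the cytosolic peptidases Npepps (-1.0) and Thop1 (-1.32). The median over the 10 was 0.02. The level of calreticulin (Calr), a chaperone of the loading complex, was 299 ± 21.6 FPKM in vehicle and 337 ± 75.8 in RMC-6272 at 24 h (SD, n = 3 each). Psmb10, the other inducible catalytic subunit of the immunoproteasome, fell at 24 h, from 116 ± 38.9 FPKM in vehicle to 69.1 ± 9.13 (difference -0.70, adjusted p = 0.0359). Its assembly factor Pomp fell too (-0.59, adjusted p = 0.0420), while Psme2, the partner of Psme1, differed by -0.10 (adjusted p = 0.771). Of 5 constitutive catalytic subunits and other activators 3 fell, beside the 20.3% of all genes. They were Psme3 (-1.01), Psmb7 (-0.57) and Psmb5 (-0.81, adjusted p = 0.0363). The ratio of Psmb8 to Psmb5, the subunit it replaces, had a median of 0.0495 in vehicle, with a range of 0.0128 to 0.0556. In RMC-6272 at 24 to 72 h the median was 0.104 (0.0460 to 0.191), and in sorafenib 0.0326 (0.0260 to 0.0412). The medians of Psmb9 to Psmb6 were 0.0295 (0.00998 to 0.0324), 0.0352 (0.0240 to 0.0579) and 0.0165 (0.0116 to 0.0291) in the same order. Those of Psmb10 to Psmb7 were 3.53 (2.49 to 4.51), 3.59 (2.94 to 7.00) and 3.38 (3.06 to 4.05). For each ratio the vehicle and RMC-6272 ranges overlapped, and no ratio was tested.

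Of 25 regulators of class I tested, 11 rose at 24 h, beside 14.8% of all genes, and 4 fell, beside 20.3%, with a median difference of 0.47. The interferon receptor chains Ifnar1 (0.89, adjusted p = 0.00128), Ifngr1 (1.25, adjusted p = 0.00183) and Ifnar2 (1.28, adjusted p = 0.00239) rose, and Nfyb, a subunit of the factor that binds CCAAT boxes, fell (-0.98, adjusted p = 0.00268). Irf1, which acts downstream of interferon receptors, was not called (0.08, adjusted p = 0.822). Of 34 interferon-induced genes tested 1 rose and 2 fell at 24 h, with a median of -0.29, beside the same 14.8% and 20.3%. The gene that rose was Cd274, which encodes PD-L1, from 1.59 ± 1.04 FPKM in vehicle (SD, n = 3) to 4.63 ± 1.60 (n = 3), a difference of 1.17 (adjusted p = 0.0399). Bst2 (-1.28, adjusted p = 0.0227) and Oasl1 (-0.93, adjusted p = 0.0489) fell. At 72 h none rose in limma. An unadjusted p under 0.05 was found for 7 lower and 1 higher of the 34 at 24 h. At 72 h it was found for 7 lower and 0 higher. Over all genes 6316 and 5774 had such a p in either direction at these times. Usp18 fell at 72 h (-1.25, adjusted p = 0.0432), and the median was -0.48. The shares of all genes at 72 h were 10.7% higher and 15.8% lower. Sorafenib, its 3 times averaged, had 8 of the 34 lower than vehicle and 0 higher with an unadjusted p under 0.05. Over all genes 414 had such a p there in either direction. For RMC-6272 against sorafenib at 24 h, 4 of the 34 were higher and 0 lower by that measure, beside 4894 of all genes. None of 7 interferon genes reached the filter, and their summed level was at most 0.263 FPKM in any RMC-6272 library and 0.242 in any vehicle library.

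**Figure D3:**
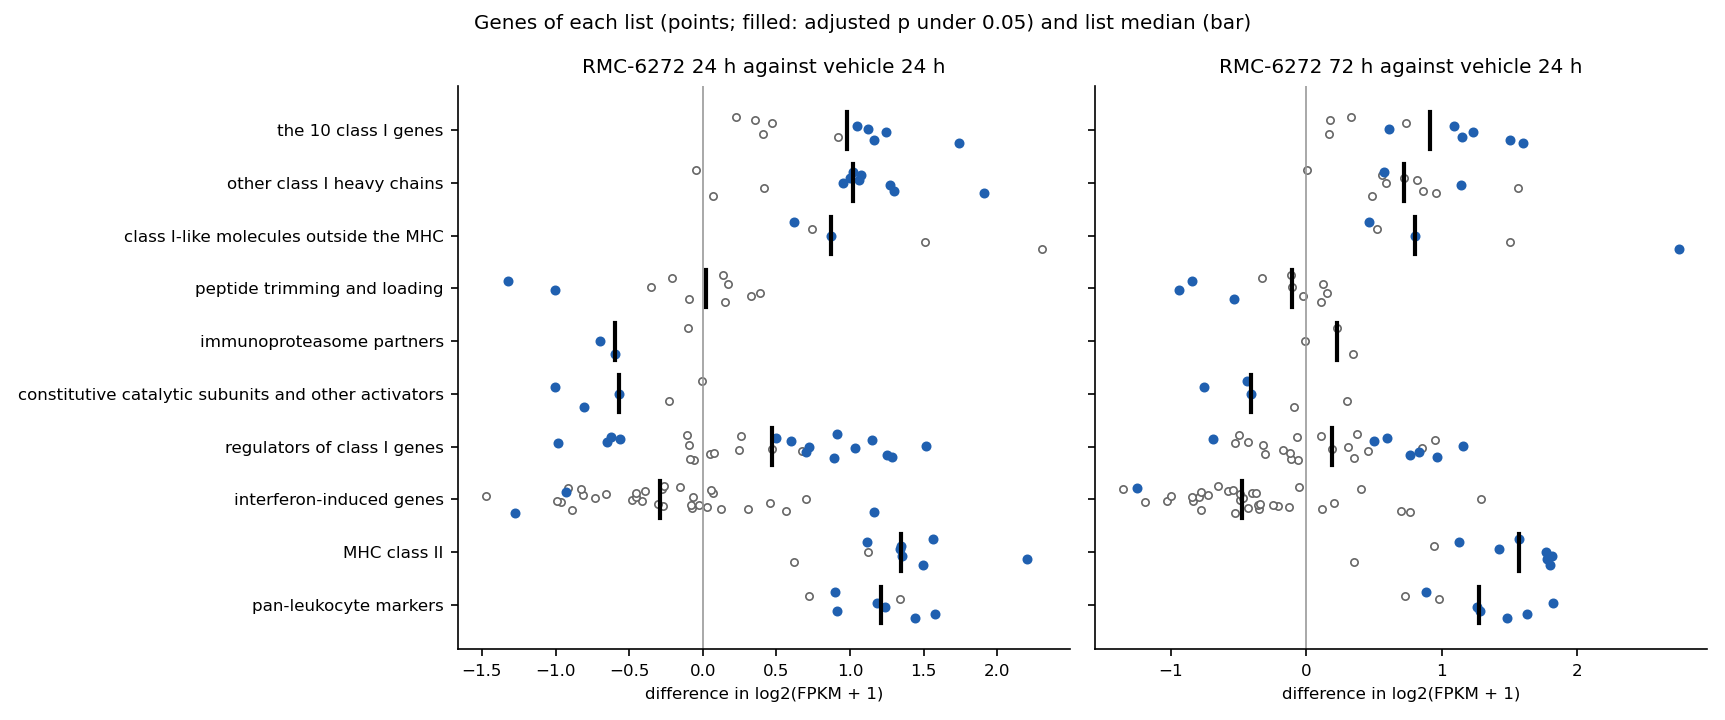
Log2 differences on the log2(FPKM + 1) scale for each tested gene of the listed groups, RMC-6272 at 24 h (left) and 72 h (right) against vehicle at 24 h. Each point is a gene, filled where its adjusted p was under 0.05, and each bar is the group's median. At 24 h the other class I heavy chains have a median of 1.02 and the interferon-induced genes -0.29. The bar of the 10 genes at 24 h, 0.98, includes Nlrc5, which was tested through RMC-6272 libraries alone. Without Nlrc5 the median is 1.04.

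Pan-leukocyte, MHC class II and hepatocyte genes were called higher in the same RMC-6272 libraries. Of 8 pan-leukocyte genes 6 rose at 24 h, beside 14.8% of all genes, with a median of 1.21, and their summed level was 41.2 to 66.7 FPKM in vehicle, 44.0 to 64.4 in sorafenib and 68.4 to 256 in RMC-6272, with none of the 8 at 0 in any library. Cd37 (1.58, adjusted p = 0.0122) and Cd53 (1.24, adjusted p = 0.0228) were among those that rose, while Ptprc, the gene of CD45, had a difference of 0.72 (adjusted p = 0.0566). Of 9 MHC class II genes tested 7 rose, with a median of 1.35, among them H2-Eb1 (1.56, adjusted p = 0.0102) and Ctss, the protease that trims the invariant chain (2.20, adjusted p = 0.00339). The summed class II level was 127 to 411 FPKM in vehicle, 119 to 172 in sorafenib and 372 to 2139 in RMC-6272. Class II is carried mainly by professional antigen-presenting cells.

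Of 12 macrophage genes 2 rose at 24 h, near the 14.8% of all genes, a count for that time alone. The macrophage sums were 557 to 774 FPKM in vehicle and 714 to 2379 over all RMC-6272 times. Of 7 T and NK cell genes none was called by limma at 24 h, with a median of -0.08. None of the 7 had an unadjusted p under 0.05 at that time. At 72 h Cd2 (0.73, limma adjusted p = 0.0244) and Cd3d (0.76, adjusted p = 0.0151) of this list were called higher. Nkg7 (0.81, adjusted p = 0.0859), Cd4, Gzma, Gzmb and Lck were not. Cd8a stayed at or under 0.225 FPKM in the RMC-6272 libraries and 0.166 in vehicle. Neutrophil genes stood at 2828 FPKM summed in 72 h replicate 3 and at most 68.9 in the other RMC-6272 libraries. Hepatocyte genes rose as well, 5 of 10 with a median of 1.59, among them Alb (2.17, adjusted p = 0.0345) and Ahsg (4.45, adjusted p = 0.000928). Their sums were 3194 to 6426 FPKM in vehicle, 3486 to 9468 in sorafenib and 7023 to 31040.3 in RMC-6272. Of the endothelial genes none of 9 was called at 24 h by limma (2 had an unadjusted p under 0.05) and 3 rose at 72 h. Of 9 stellate cell genes 2 and 3 rose at these times. The shares of all genes called higher were 14.8% at 24 h and 10.7% at 72 h. Of 3 dendritic cell genes 1 rose at 24 h, and of 4 bile duct genes 1 fell, beside 20.3% of all genes called lower. Of 3 B cell and plasma cell genes none was called by limma, with 1 at an unadjusted p under 0.05. The library with the highest H2-D1 of the 20, RMC-6272 24 h replicate 2, had a pan-leukocyte sum of 107 FPKM. That was the lowest of the 3 at 24 h, yet above all vehicle (at most 66.7) and sorafenib (at most 64.4) libraries. Its hepatocyte sum of 31040.3 was the highest of the 20. The part of these cell types in the class I differences was not tested.

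**Figure D4:**
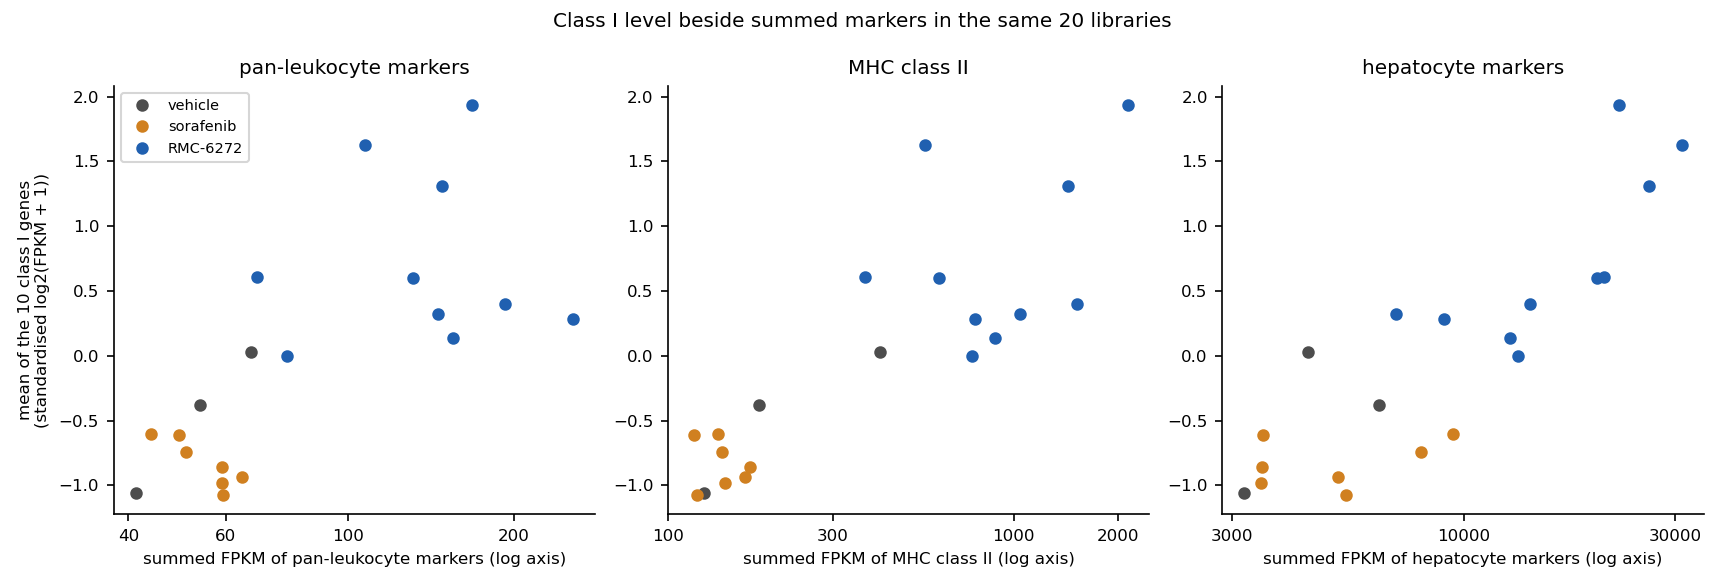
Mean standardised log2(FPKM + 1) of the 10 genes (vertical, in SD) against the summed FPKM of pan-leukocyte, MHC class II and hepatocyte markers (horizontal, log axes). Each point is 1 of the 20 libraries, coloured by treatment. RMC-6272 libraries have pan-leukocyte sums of 68.4 to 256 FPKM, to the right of all vehicle and sorafenib libraries. The mean includes Nlrc5, which passed the filter through RMC-6272 libraries alone.

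Among themselves the 10 genes varied together to different degrees. Across the 20 libraries Pearson's r between pairs of genes ran from 0.36 (Tap1 with Psme1) to 0.97 (B2m with H2-K1), a description over libraries that differ in treatment. Averaged over the standardised levels of the 10 genes, the highest libraries were RMC-6272 at 12 h (1.93 SD), 24 h replicate 2 (1.63) and 72 h replicate 1 (1.31), and the lowest were sorafenib 24 h replicate 1 (-1.07) and vehicle replicate 3 (-1.06). The 8 genes most like this average over the 20 libraries were H2-Q4 (r = 0.95), Sil1 (0.94), Gsdmd, Fhit and Clcn4 (0.93 each), and Slc35d2, Serping1 and Irf2 (0.92 each). The average includes Nlrc5, which passed the filter through RMC-6272 libraries alone, so this order is a description.

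The libraries of RMC-4627, another bi-steric mTORC1 inhibitor, and of doxycycline are given as values only, since their scale differs. The housekeeping gene Eef1a1 read 38249.7 and 1479 FPKM in the RMC-4627 libraries and 12567 and 17680 in doxycycline, against 2335 to 5582 in the other 20. H2-D1 read 416 and 322 FPKM with doxycycline and 174 and 475 with RMC-4627. H2-K1 read 385 and 457 FPKM with doxycycline and 529 and 20.6 with RMC-4627. B2m stood at 1262 and 998 FPKM with doxycycline and at 129.7 and 398 with RMC-4627. Because both the housekeeping levels and the steps of the values differ from the other 20, no level was set against vehicle. With RMC-4627 Tap1 read 9.85 and 0.673 FPKM, Tap2 10.4 and 1.32, and Nlrc5 4.36 and 0.138, and replicate 1 was the higher for all 3. Psmb8 read 33.3 and 8.50 FPKM there, Psmb9 7.98 and 14.1, Tapbp 5.45 and 16.8, and Psme1 43.2 and 24.1. With doxycycline Tapbp read 8.50 and 5.71 FPKM, Psmb8 5.69 and 10.1, Psmb9 3.76 and 4.77, Psme1 59.2 and 63.4, Tap1 6.19 and 8.77, Tap2 4.18 and 5.53, and Nlrc5 1.39 and 1.22.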

How the data were processed

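RNA-seq of bulk tumour tissue was used as FPKM per gene deposited by the authors. Per the submitters' processing notes, reads were aligned with STAR 2.5 to mm9 and counted with HTSeq 0.6.1, with roles and settings not given in the sources used here. Rows named by a date (27) and those sharing a symbol with a more abundant row (102) were left out. The low values of 20 libraries were whole multiples of 1 read in 98.2 to 98.7% of cases (tolerance 0.02, up to 20 reads). In the 4 doxycycline and RMC-4627 libraries the share was 3.83 to 4.39%, so their depth is unknown. These steps and the read numbers were computed with exon lengths of a GRCm38 annotation. Read numbers cover counting error only. Duplicates were looked for in 17 pairs of libraries, whose chi-square per gene was 23.9 to 621.

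Values were log2(FPKM + 1) of the 20 libraries, fitted in limma 3.58.1 (R 4.3.3) with 1 mean per treatment and time and eBayes with trend. Genes under an FPKM of 1 in all libraries or in all but 1 were left out. Intervals are 95% intervals. Promoters were searched with Biopython 1.88. The script was tested on simulated data. The genes and lists were chosen with earlier results of these data known. All 10 genes are given in each group. Of other lists up to 4 called genes with the smallest p may be named, and Ifng, Irf1, Psmb10, Psme2, Psmb5, Psmb6, Psmb7, Calr, Ptprc, Cd8a, Alb and Cd274 may be given whatever their test. Some genes the rule takes are not reported here. The 8 genes most correlated with the mean of the 10 are named too. Alternatives were another pseudocount, scaling, filter, set of libraries or block, and leaving out each replicate.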

Additional observations from a re-analysis of the deposited data

How the results depend on the processing

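Each comparison was refitted under 27 alternatives. H2-D1, Tap2 and Tapbp at 24 h of RMC-6272, H2-D1 at 72 h, and H2-D1 and Tapbp over the averaged times were called in all 27. The number of the 10 genes called at 24 h fell from 5 to 3 with no filter, with all 24 libraries in the fit and with the description code as a random block. At 72 h it fell from 6 to 3 with no filter and to 1 with all 24 libraries. Averaged over times it fell from 5 to 3 with no filter and 3 with all 24 libraries. Against sorafenib at 24 h it fell from 9, Nlrc5 included, to 3, 2 and 4 with no filter, all 24 libraries and the code block. The cause was not tested. Leaving out each replicate gave 3 to 6 calls at 24 h, 2 to 6 at 72 h, 2 to 6 averaged, 0 to 9 against sorafenib at 24 h, and 0 to 1 over the RMC-6272 times.

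Some differences that were never called changed sign when a replicate was left out. Tap1 ran from -0.017 to 0.77 at 24 h, -0.32 to 0.47 at 48 h, -0.26 to 0.53 at 72 h, -0.20 to 0.59 averaged, and -0.0077 to 0.65 against sorafenib at 48 h. Nlrc5 at 72 h ran from -0.0075 to 0.32. For sorafenib against vehicle, H2-D1 ran from -0.46 to 0.13, H2-K1 from -0.32 to 0.067, Tapbp from -0.040 to 0.093, Psmb8 from -0.60 to 0.18 and Psme1 from -0.32 to 0.055. Tapbp was -0.039 there with a replicate block. Deviations of same-numbered libraries had r from -0.50 to 0.49 over 30 pairs, 10 of them over 0.1. Different-numbered libraries spread as widely, from -0.50 to 0.52, so r does not decide whether the numbers pair the libraries. The replicate block gave 5 calls at 24 h, 5 at 72 h (B2m adjusted p = 0.0501, limma) and 5 averaged. Of the 10 genes Nlrc5 had the fewest reads, with 45 in the library where it was lowest.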
